A study of Mus musculus with 18 samples.

Results

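The Rab GTPases, the small GTP-binding proteins that direct vesicles between the membrane compartments of a cell, were followed in 18 whole-lung expression arrays of fetal and newborn mice. Members were all probe sets annotated with exactly 1 gene symbol made of Rab, a number and an optional letter and digit, so that interacting proteins such as the Rab11fip genes were left out. This gave 62 probe sets of 59 genes, among 35556 probe sets on the array of which 21789 carried a single gene symbol, for 19938 genes. Counts of Rabs below are counts of probe sets. Each member was placed by its best known route: 12 probe sets in traffic between endoplasmic reticulum (ER) and Golgi, 8 in regulated secretion, 4 in delivery to the plasma membrane, 8 at early endosomes, 10 in recycling, 7 at late endosomes and lysosomes, 2 at lysosome-related organelles, 2 at the cilium and 9 elsewhere or with no settled route.

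The study deleted genes of the sterol-sensing pathway in lung epithelium. Scap, the escort that carries the transcription factors SREBP from the ER to the Golgi, was removed in ScapΔ/Δ mice, and Insig1, which holds SCAP in the ER, was removed in Insig1/2Δ/Δ mice. There were 3 arrays in each of 6 groups: control lungs (C19, C20, C21) and Insig1/2Δ/Δ lungs (KO22, KO23, KO24) at E17.5, control (C7, C8, C9) and ScapΔ/Δ lungs (KO10, KO11, KO12) at E18.5, and control (C13, C14, C15) and ScapΔ/Δ lungs (KO16, KO17, KO18) at PN1, which was the day of birth. Each array held whole-lung RNA, and since the labels do not tie arrays to litters, p-values measure only the spread between these samples. Deletion used an SP-C-rtTA transgene, which made rtTA in respiratory epithelium, and a Cre transgene under a tetO-CMV promoter. Doxycycline was given to the dams during early lung formation, and deletion was incomplete. Controls were littermates that lacked the rtTA or the Cre transgene, and control and deleted mice of the Insig line shared the Insig2 knockout. The labels write the genotypes as Scap-/- and Insig-/-, although the deletion was aimed at epithelium. In whole lung, fewer cells of a type and less RNA per cell cannot be told apart.

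A Rab protein cycles between a GDP-bound form in the cytosol and a GTP-bound form on a membrane, where it recruits motors, tethers and fusion factors. Each Rab must carry a geranylgeranyl lipid, made by the mevalonate pathway that SREBP controls, and it is attached with the help of a Rab escort protein. Rab1 and Rab2 act between ER and Golgi, Rab5 on early endosomes, Rab4 and Rab11 in recycling, and Rab7 on late endosomes and lysosomes. The Rab3 and Rab27 proteins dock secretory granules at the plasma membrane, and Rab32 and Rab38 supply lysosome-related organelles, the class to which the surfactant-storing lamellar bodies of alveolar type II cells belong.

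Promoters, each from 250 bases before to 50 bases after a transcription start, were taken from RefSeq on GRCm38.p6 and were found for 48 of the 59 genes, with 60 starts in all. The 5 printed here belong to Rab27a, which has a pair of starts, and to Rab2b, Rab3a and Rab32, because Rab27a and Rab2b had the largest differences at PN1, Rab3a had the only match to the motif that SREBP binds, and Rab32 is a lysosome-related member. Capitals mark matches, on either strand, to the sterol regulatory element TCACNCCAC, the E-box CACGTG, the CCAAT box CCAAT, the GC box GGGCGG and the TATA box TATAAA, and matches of different motifs may overlap.
Rab27a, upstream start, chr9:73044560-73044859, plus strand: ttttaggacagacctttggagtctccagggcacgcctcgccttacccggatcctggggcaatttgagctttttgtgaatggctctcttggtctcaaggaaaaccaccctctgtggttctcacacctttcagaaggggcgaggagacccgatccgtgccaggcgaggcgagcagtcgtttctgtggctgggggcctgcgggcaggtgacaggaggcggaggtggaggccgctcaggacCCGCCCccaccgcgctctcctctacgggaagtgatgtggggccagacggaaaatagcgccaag
Rab27a, downstream start, chr9:73063898-73064197, plus strand: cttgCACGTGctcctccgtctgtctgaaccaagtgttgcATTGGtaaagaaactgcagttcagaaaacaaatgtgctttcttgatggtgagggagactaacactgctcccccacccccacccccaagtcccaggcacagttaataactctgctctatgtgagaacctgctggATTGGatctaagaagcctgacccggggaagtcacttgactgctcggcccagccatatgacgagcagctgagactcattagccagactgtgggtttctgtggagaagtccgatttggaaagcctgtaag
Rab2b, chr14:52279346-52279645, minus strand: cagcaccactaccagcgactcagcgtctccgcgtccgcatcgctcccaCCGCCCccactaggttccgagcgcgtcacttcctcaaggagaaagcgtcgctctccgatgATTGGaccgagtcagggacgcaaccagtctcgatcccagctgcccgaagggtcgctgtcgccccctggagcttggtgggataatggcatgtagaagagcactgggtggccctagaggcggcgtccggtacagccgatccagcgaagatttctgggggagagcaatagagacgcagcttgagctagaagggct
Rab3a, downstream start, chr8:70754852-70755151, plus strand: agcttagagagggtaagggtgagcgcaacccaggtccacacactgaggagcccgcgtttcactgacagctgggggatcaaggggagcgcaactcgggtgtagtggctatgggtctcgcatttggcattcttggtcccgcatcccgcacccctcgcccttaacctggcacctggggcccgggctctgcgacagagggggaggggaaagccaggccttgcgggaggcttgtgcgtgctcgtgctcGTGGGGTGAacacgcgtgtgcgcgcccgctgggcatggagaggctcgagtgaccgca
Rab32, chr10:10558158-10558457, minus strand: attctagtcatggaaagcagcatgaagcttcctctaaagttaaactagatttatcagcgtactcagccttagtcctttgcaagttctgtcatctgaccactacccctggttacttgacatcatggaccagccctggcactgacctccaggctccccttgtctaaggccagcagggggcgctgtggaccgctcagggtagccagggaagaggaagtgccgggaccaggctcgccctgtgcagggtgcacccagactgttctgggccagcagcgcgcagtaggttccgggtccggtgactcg
The sterol regulatory element was found in 1 of 60 Rab promoters (1.7%) and in 1.2% of all 32851 promoters. The E-box was found in 6 Rab promoters (10%) and in 7.2% of all, the CCAAT box in 26 (43.3%) and in 37.4%, the TATA box in 4 (6.7%) and in 13.6%. The GC box stood in 41 Rab promoters (68.3%) and in 35.7% of all, beside a median GC content of 61.2% in Rab promoters and 52.7% in all. A match describes these letters and does not show that a factor binds there. The window of Rab32 held no match to any of the 5 motifs.

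Before the comparisons, some facts of the arrays bear on every Rab value. Over all probe sets r was 0.9944 between KO17 and KO18, but only 0.9312 to 0.9599 between either and the remaining 16 arrays, which had r of 0.9729 to 0.9975 among themselves. Their values were also compressed, with an SD over probe sets of 2.08 in each against 2.23 to 2.30 elsewhere. The Insig line held 2 sets of arrays, C19, C20 and KO22 on one side and C21, KO23 and KO24 on the other, which correlated within sets at 0.9932 or more and between sets at 0.9914 or less. The deleted gene was lower without overlap in each line: Scap by a log2 difference of -0.41 at E18.5 (adjusted p = 0.511 from limma) and -0.29 at PN1 (0.0914), and Insig1 by -1.22 in the Insig line (0.758). The lung markers Sftpc and Sftpb read at least 13.29 and 12.27 on the log2 scale in every array.

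**Figure D1:**
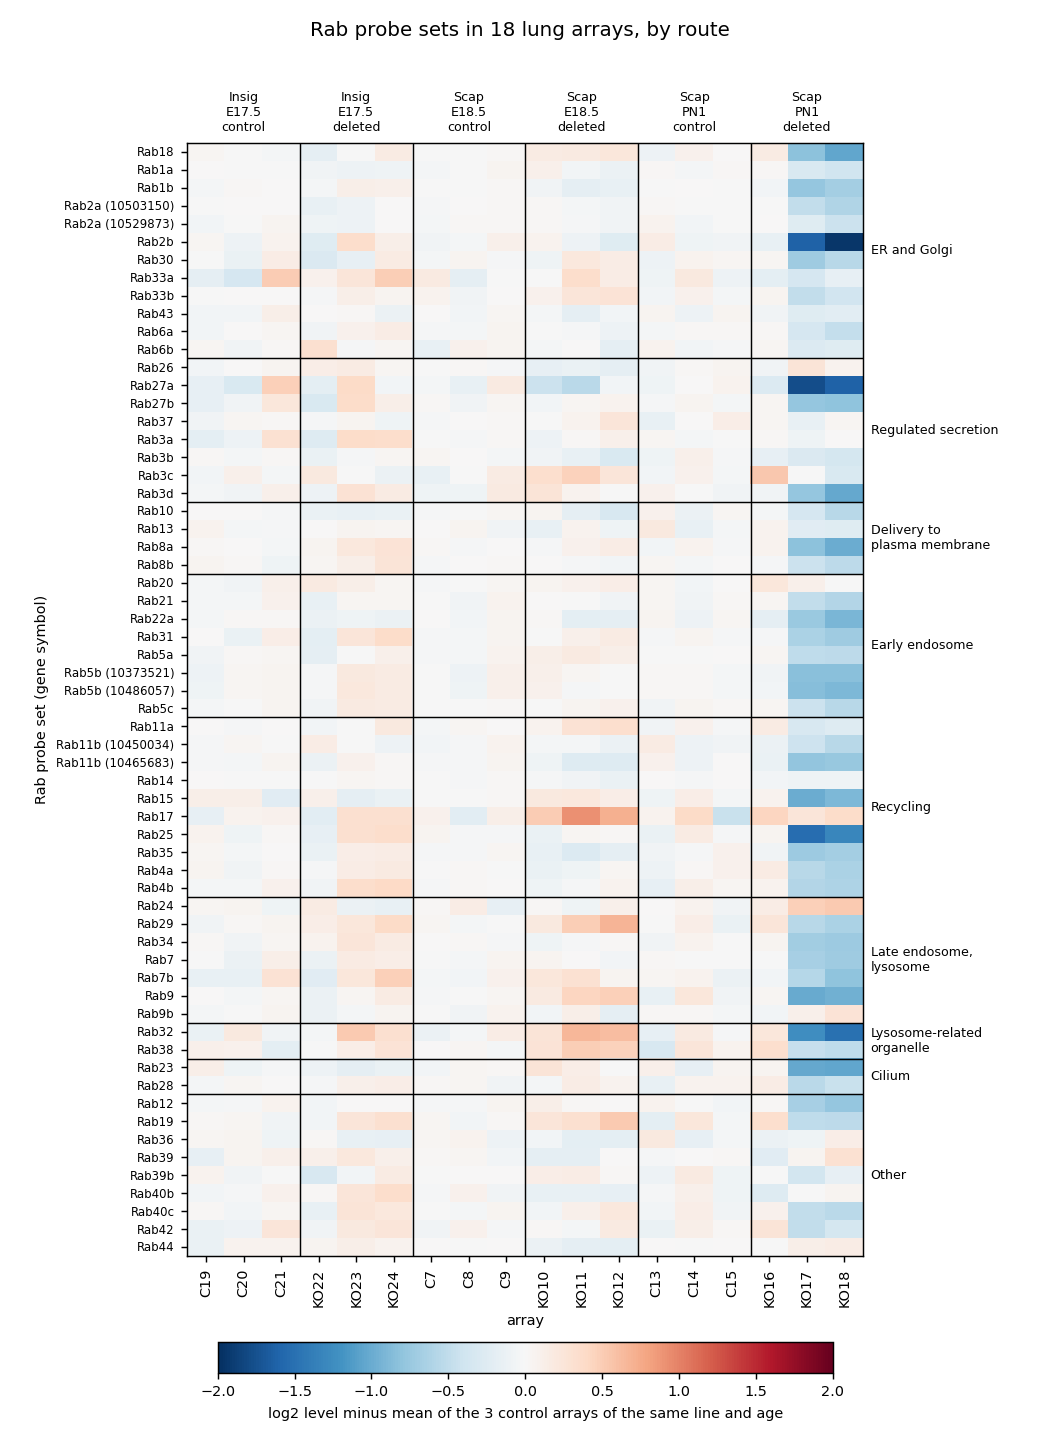
Each row is a Rab probe set, grouped by route, and each column an array; colour gives the log2 level minus the mean of the 3 control arrays of the same line and age (blue lower, red higher). KO17 and KO18 are blue in most rows with medians of -0.49 and -0.55, whereas KO16 has a median of 0.03.

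At E18.5 the question was which Rabs differ before birth when epithelial Scap is lost. The Rabs did not shift as a family: of 59 probe sets that passed the filter on low values, 30 were higher and 29 lower in ScapΔ/Δ lungs, with a median log2 difference of 0.0004 against -0.04 over all 22800 tested. No Rab passed an adjusted p of 0.05 in limma, which 0.00877% of all probe sets did, and the lowest adjusted p of a Rab was 0.511. At an unadjusted p under 0.05 there were 2 Rabs (3.4%), Rab17 higher and Rab44 lower, against 9.24% of all. In 12 Rabs (20.3%) all 3 deleted arrays lay above all 3 controls and in 7 (11.9%) below, against 14.5% and 21% of all probe sets. The Rabs that stood highest without overlap were Rab17, an epithelial Rab of transcytosis, the related Rab32, Rab38 and Rab29 of lysosome-related organelles and lysosomes, and Rab9, which returns receptors from late endosomes to the Golgi.

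Rab17 read 9.23, 8.94 and 9.26 in the E18.5 controls and 9.65, 10.05 and 9.85 in KO10, KO11 and KO12. All deleted arrays were above all controls, by a log2 difference of 0.71 ± 0.19 (SE, n = 3 and 3, adjusted p = 0.511 from limma). Rab32 read 8.90, 8.98 and 9.16 in controls and 9.27, 9.68 and 9.63 in deleted lungs. KO11 and KO12 were farther from the controls than KO10, and the difference was 0.51 ± 0.35. Rab38, whose loss in rodents alters lamellar bodies, read 8.92, 8.96 and 8.88 in controls and 9.20, 9.42 and 9.38 in deleted lungs, a difference of 0.41 ± 0.21 with no overlap.

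Rab29, a relative of Rab32 and Rab38 that acts at the Golgi and lysosome, read 9.02, 8.95 and 8.98 in controls and 9.18, 9.48 and 9.67 in KO10, KO11 and KO12. The groups did not overlap and differed by 0.46 ± 0.21 (adjusted p = 0.541 from limma). Rab9 read 11.12, 11.14 and 11.19 against 11.33, 11.58 and 11.62. Here too KO10 was the deleted array nearest to the controls, with a difference of 0.36 ± 0.24. The adjusted p of Rab9, Rab38 and Rab32 were 0.61, 0.561 and 0.628.

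The other routes at E18.5 had medians close to 0. The 8 early endosome probe sets had a median of 0.04 and ranged from -0.12 for Rab22a to 0.14 for Rab5a, and the 11 tested ER and Golgi probe sets a median of -0.03 with a range of -0.13 to 0.20. Among recycling Rabs, Rab17 aside, Rab11a and Rab15 were higher without overlap at 0.23 and 0.18 and Rab35 and the Rab11b probe set 10465683 lower without overlap at -0.20 each. In regulated secretion Rab27a was at -0.34 with overlapping arrays, while Rab3b (-0.17) and Rab26 (-0.16) were lower without overlap. Rab3b was near the limit of the filter on low values. Of the 10 type II cell markers 6 were lower without overlap in the same lungs, and their summed level was 15.66 to 15.77 in deleted against 15.85 to 15.90 in control arrays on the log2 scale. The summed level of 6 neutrophil markers was 10.54 to 11.04 in these deleted lungs against 10.19 to 10.46 in controls. The list was split, with 3 markers above 0 and 3 below, 2 higher and 1 lower without overlap. Sums were lower without overlap for 7 endothelial markers, at 14.52 to 14.67 against 14.70 to 14.71, and for 7 type I cell markers, at 14.39 to 14.47 against 14.49 to 14.53. All 7 endothelial markers were below 0, 2 of them without overlap. Of the type I cell markers 4 were below 0 and 3 above, with 2 lower and 1 higher without overlap. The part of these cells in the Rab values was not tested.

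**Figure D2:**
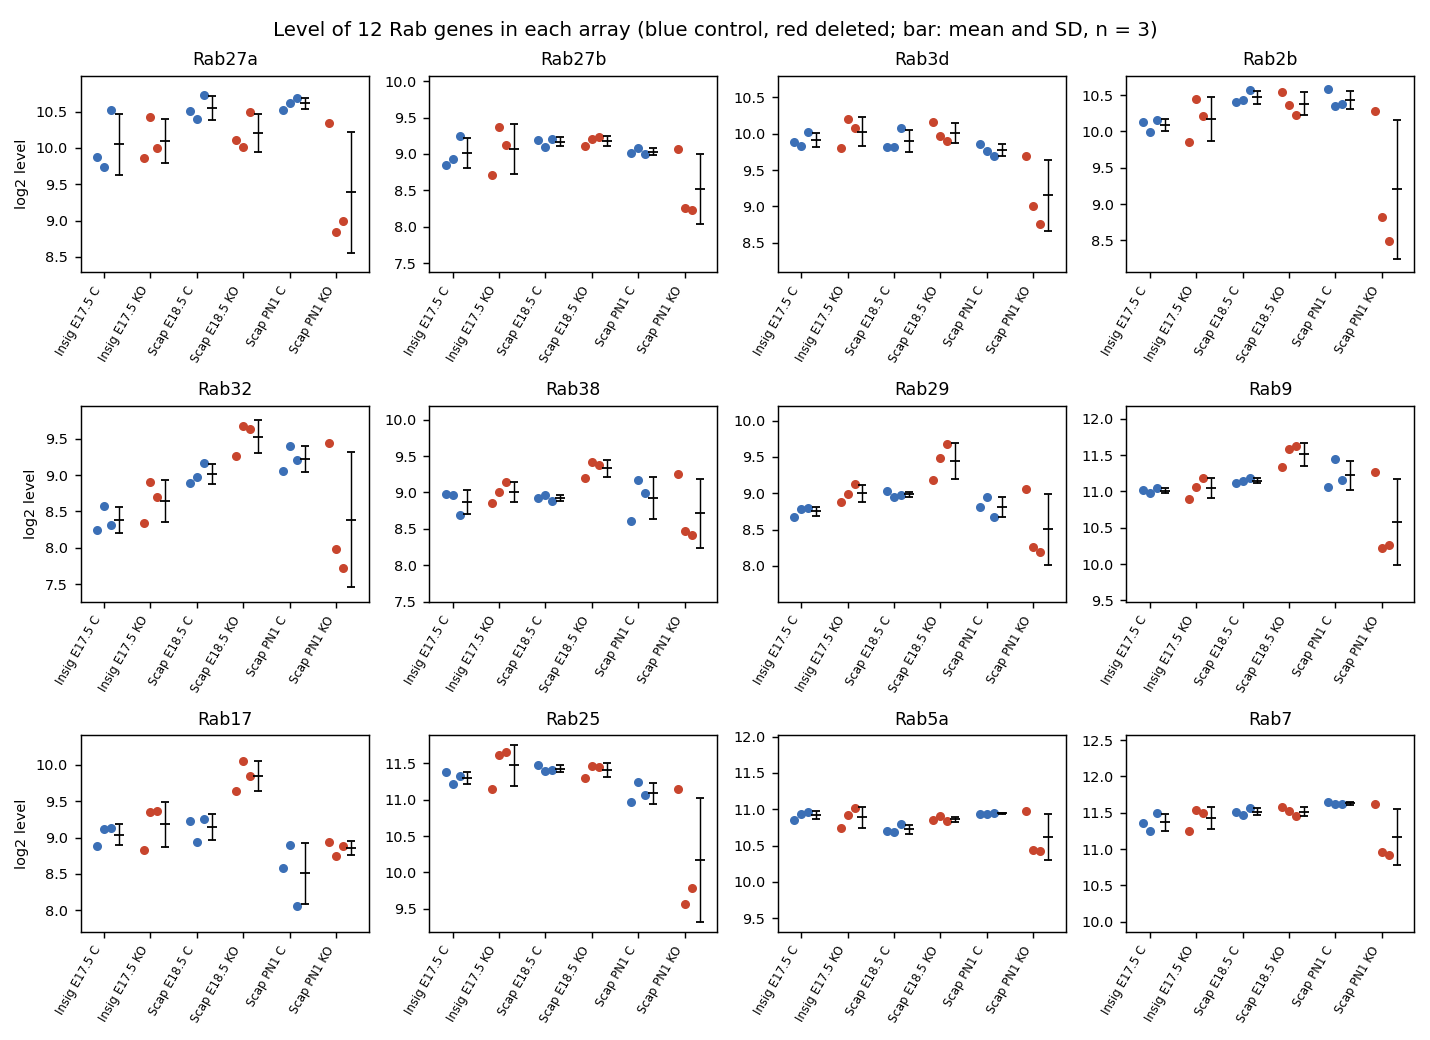
Log2 level (vertical axes, each panel with its own centre and the same span) of 12 Rab genes in every array of the 6 groups, C for control and KO for deleted; points are arrays and bars the mean and SD of 3. Rab17, Rab32, Rab38, Rab29 and Rab9 are higher in the E18.5 deleted arrays than in their controls, and in the PN1 deleted group KO17 and KO18 lie below KO16 in every panel.

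At PN1 most Rabs were lower in the ScapΔ/Δ group. Of 59 tested, 52 were below 0 and 7 above, with a median log2 difference of -0.33 against -0.06 over all probe sets. None passed an adjusted p of 0.05 in limma (0.00877% of all did); the lowest adjusted p of a Rab was 0.0897. At an unadjusted p under 0.05 there were 34 Rabs (57.6%), 33 of them lower, against 32.3% of all. The arrays did not overlap in 12 lower Rabs (20.3%), against 11% of all, and in 1 higher Rab (1.7%), against 5.59%. That 1 was Rab24, a Rab linked to autophagy, which read 8.70, 8.77 and 8.63 in controls and 8.84, 9.18 and 9.22 in KO16, KO17 and KO18, a difference of 0.38 ± 0.12 (adjusted p = 0.0918 from limma).

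These means joined unlike lungs. KO16 had 27 of 62 Rabs below and 35 above the control mean, with a median of 0.03, whereas KO17 had 55 below and a median of -0.49 and KO18 52 below and a median of -0.55. KO17 was below all 3 controls in 52 Rabs (83.9%) and KO18 in 51 (82.3%), against 36.6% and 35.1% of all probe sets, and KO16 in 16 (25.8%) against 32.9%. In 44 of 62 Rabs (71%) the lowest of all 18 values was that of KO17 or KO18, against 25.8% of all probe sets. These shares of all are over 35556 probe sets, low ones included, and were not matched on control level. Because the range of KO17 and KO18 was compressed, the Rabs were also set against probe sets of similar control level: for those at a control level of 10 or more, all 28 Rabs were lower in KO17 and in KO18, with medians of -0.67 and -0.70 against -0.31 and -0.33 over all 5898 probe sets of that level. In KO16 the same 28 Rabs had a median of 0.002 against 0.03. At control levels of 8 to 10, 16 of 20 Rabs were lower in KO17 and 16 of 20 in KO18. Their medians were -0.49 and -0.52 against -0.18 and -0.15 over all probe sets. Below 8, 8 of 11 Rabs were lower in KO17 and 5 of 11 in KO18. Here the medians were -0.14 and 0.04 against 0.11 and 0.13. The share of all probe sets below 0 at each level was not counted.

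**Figure D3:**
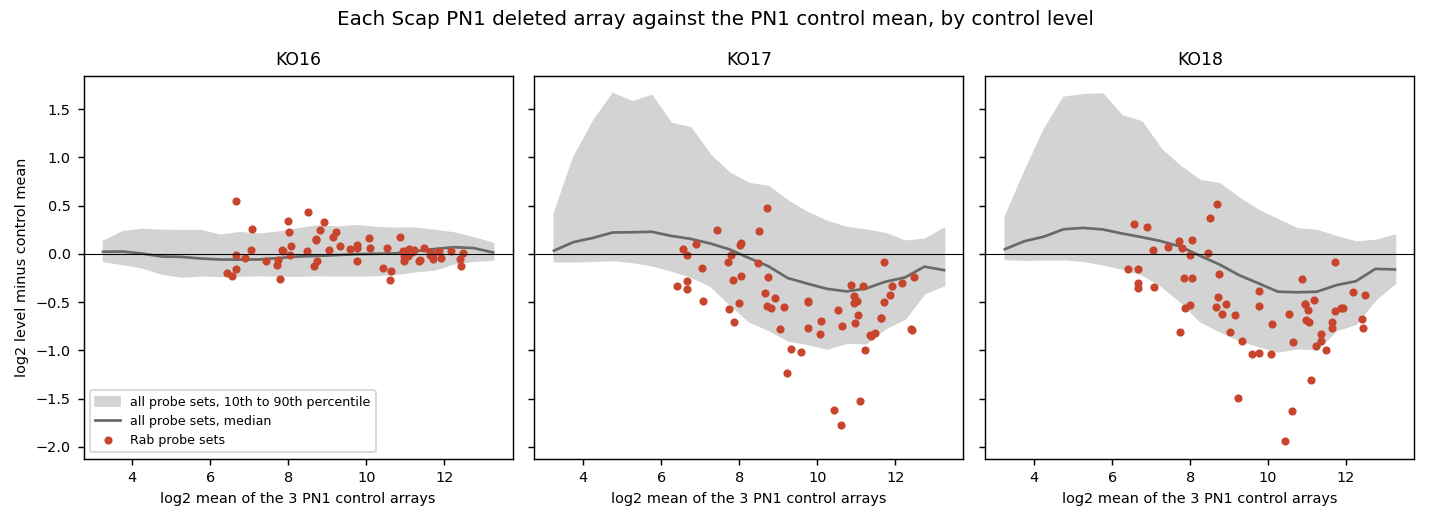
For KO16, KO17 and KO18, the log2 level minus the PN1 control mean (vertical) against that control mean (horizontal); red points are the 62 Rab probe sets, the grey line the median and the grey band the spread from the lower to the upper decile of all probe sets in bins of control level. The Rabs of KO16 lie about 0. In KO17 and KO18 all Rabs are below 0 at a control level of 10 or more, and some are above 0 at lower levels.

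Without KO16, limma called 46 of 58 tested Rabs, 45 lower and Rab24 higher, where 61.9% of all probe sets were called, and the median Rab difference was -0.52. Without KO17 and KO18 limma called no Rab, 3 had an unadjusted p under 0.05, the median was 0.03 and 35 of 59 Rabs took the other direction, among them Rab32 (0.22), Rab38 (0.33) and Rab9 (0.045). In the fit without KO16 the calls covered all 11 tested ER and Golgi probe sets, 7 of 8 at early endosomes, 8 of 10 in recycling, 5 lower and 1 higher of 7 at late endosomes, both lysosome-related Rabs, both cilium Rabs, 3 of 4 in delivery to the plasma membrane, 3 of 6 in regulated secretion and 4 of 8 others. That fit kept only KO17 and KO18, with r of 0.9944 between them, as deleted lungs at PN1. The route counts stand beside the same 61.9% of all probe sets. 

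The regulated secretion Rabs were split at PN1. Rab27a, which tethers secretory granules and lysosome-related organelles to the cell cortex, read 10.53, 10.62 and 10.69 in controls and 10.34, 8.84 and 8.99 in KO16, KO17 and KO18. All deleted arrays were below all controls, KO17 and KO18 by far more than KO16, and the difference was -1.22 ± 0.32 (adjusted p = 0.0897 from limma). In the earlier ages Rab27a read 10.51, 10.40 and 10.72 in E18.5 controls and 10.11, 10.01 and 10.49 in deleted lungs, with overlap. Rab27b, its close relative, read 9.02, 9.08 and 9.0 in PN1 controls and 9.07, 8.26 and 8.23 in deleted lungs. KO16 was within the control range, and the difference was -0.51 ± 0.18 (0.105). Rab3d, found on secretory granules of exocrine and type II cells, read 9.86, 9.76 and 9.70 against 9.70, 9.01 and 8.75. KO16 was just under the lowest control, and the difference was -0.62 ± 0.20 (adjusted p = 0.0928 from limma).

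The remaining secretory Rabs moved less. Rab3a, best known from synaptic vesicles, read 8.52, 8.43 and 8.46 in PN1 controls and 8.5, 8.38 and 8.48 in deleted lungs, with overlap and a difference of -0.02 ± 0.08. Rab3b read 6.58, 6.77 and 6.65 against 6.51, 6.38 and 6.31, lower without overlap by -0.27 ± 0.09 (adjusted p = 0.0962 from limma). Rab37, a Rab of granule exocytosis, overlapped at 6.90, 7.05 and 7.18 against 7.09, 6.90 and 7.08. Rab26, a granule Rab of secretory cells, read 7.35, 7.45 and 7.48 in controls and 7.35, 7.68 and 7.50 in deleted lungs, a difference of 0.08 ± 0.09. Rab3c did not pass the filter in the Scap line and read 6.61, 6.75 and 6.63 against 7.21, 6.65 and 6.36. In KO17 and KO18 Rab27a, Rab27b and Rab3d were far below the controls, whereas Rab3a, Rab26 and Rab37 were near or within the control range. Rab27a, Rab27b and Rab3d also read higher in the PN1 controls than the rest of the route. Over all tested probe sets with control levels below 8, the medians of KO17 and KO18 were 0.11 and 0.13. They were -0.18 and -0.15 at 8 to 10, and -0.31 and -0.33 at 10 or more. The part of control level in the split was not tested.

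In the fetal groups the same secretory Rabs lay closer together. At E18.5 Rab27b read 9.19, 9.10 and 9.21 in controls and 9.11, 9.21 and 9.23 in deleted lungs, and Rab3d 9.82, 9.81 and 10.08 against 10.16, 9.97 and 9.89. Rab3a read 8.45, 8.43 and 8.47 against 8.34, 8.47 and 8.56, and Rab37 6.96, 6.99 and 7.0 against 6.98, 7.06 and 7.22. These 4 overlapped. Rab3b read 6.57, 6.54 and 6.5 against 6.46, 6.39 and 6.24, and Rab26 read 7.39, 7.42 and 7.37 against 7.22, 7.26 and 7.21, both with all deleted arrays below all controls. Rab3c read 6.13, 6.27 and 6.45 against 6.61, 6.74 and 6.52, all deleted arrays above, and was not tested.

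In the Insig line all secretory Rabs overlapped. Rab3d read 9.88, 9.84 and 10.02 in controls and 9.80, 10.20 and 10.08 in deleted lungs, and Rab27b 8.85, 8.93 and 9.24 against 8.70, 9.38 and 9.13. Rab3a, at 8.10, 8.20 and 8.61 against 8.05, 8.68 and 8.66, was high in C21, KO23 and KO24 and low in C19, C20 and KO22, the same division as between the sets of arrays. Rab26 read 7.20, 7.27 and 7.32 against 7.4, 7.43 and 7.31, Rab37 6.82, 6.93 and 6.91 against 6.87, 6.95 and 6.81, and Rab3b 6.56, 6.5 and 6.56 against 6.41, 6.53 and 6.58. Rab3c read 6.65, 6.80 and 6.66 against 6.91, 6.69 and 6.59.

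Among ER and Golgi Rabs, Rab2b, a regulator of Golgi structure, read 10.58, 10.36 and 10.37 in PN1 controls and 10.29, 8.82 and 8.5 in KO16, KO17 and KO18. KO16 was just below the controls and the other deleted lungs far below, for a difference of -1.23 ± 0.35 (adjusted p = 0.0914 from limma). All 11 tested probe sets of this route were below 0, from -1.23 to -0.16 with a median of -0.27. Rab1b, needed for ER to Golgi transport, was lower without overlap at -0.50, and Rab18, a Rab of the ER and lipid droplets, was at -0.57 with overlap. The Rab2a probe sets differed in place: 10503150 was at -0.36 and 10529873 at -0.22, and the array neighbours of 10529873 lie on chromosome 5 although Rab2a is on chromosome 4, so a near-identical copy cannot be told apart from Rab2a.

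On the endocytic side at PN1, Rab22a, a Rab of early and recycling endosomes, read 10.69, 10.53 and 10.66 in controls and 10.45, 9.88 and 9.71 in deleted lungs. All deleted arrays were below all controls, by -0.61 ± 0.16 (adjusted p = 0.0897 from limma). Rab5b, a Rab of early endosome fusion, read 11.38, 11.40 and 11.32 against 11.31, 10.51 and 10.46 on probe set 10486057, with no overlap and a difference of -0.61 ± 0.18. Its other probe set, 10373521, differed from this by at most 0.05 in any array and gave -0.58. All 20 array neighbours of 10486057 lie on chromosome 2 although Rab5b is on chromosome 10, so here too a near-identical copy cannot be told apart. Rab5a and Rab5c overlapped at -0.33 and -0.32, and Rab20 was at 0.10, the only early endosome Rab above 0. Of the 10 recycling probe sets 9 were below 0 with a median of -0.37, Rab25, the epithelial relative of Rab11, at -0.92 with overlap (adjusted p = 0.0987 from limma) and Rab14 at -0.07 without overlap.

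Rab14, which works between Golgi and endosomes, spanned 0.19 over all 18 arrays, the smallest range of any Rab. Rab2b and Rab25 spanned the most at 2.08 each. Both probe sets of Rab11b were lower without overlap at PN1, at -0.56 and -0.36, although they differed in level by at least 3.40 in every array, and the neighbours of 10465683 lie on another chromosome than Rab11b.

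On the lysosomal route, Rab7, which drives the passage from late endosome to lysosome, read 11.65, 11.62 and 11.61 in PN1 controls and 11.61, 10.96 and 10.92 in KO16, KO17 and KO18. KO16 was within the control range and the difference was -0.46 ± 0.15 (adjusted p = 0.0958 from limma). At E18.5 Rab7 was between 11.48 and 11.57 in controls and read 11.57, 11.52 and 11.46 in deleted lungs, with a difference of 0.0004. Rab9 was at -0.64 and Rab34, linked to lysosome position, at -0.45, both with overlap. Rab32 read 9.06, 9.40 and 9.20 in PN1 controls and 9.45, 7.98 and 7.73 in deleted lungs, so that KO16 was the highest and KO17 and KO18 were the lowest of the 6, with a difference of -0.84 ± 0.35. Rab38 gave the same order, with 8.61, 9.17 and 9.0 against 9.26, 8.47 and 8.41, and a difference of -0.21 ± 0.21.

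**Figure D4:**
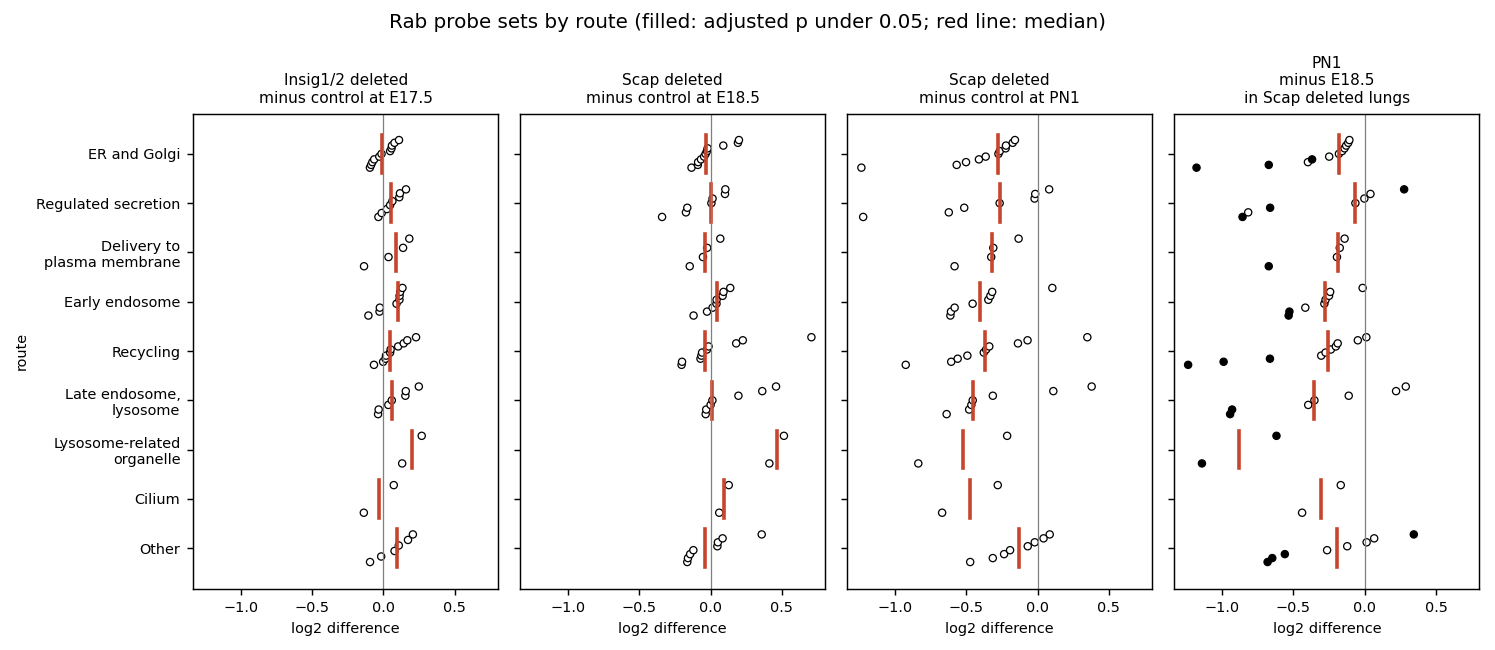
Each circle is a tested Rab probe set by route (rows) at its log2 difference (horizontal axis) in 4 comparisons; filled circles had an adjusted p under 0.05 and red lines are medians. Calls occur only in the fourth panel, where 18 Rabs were lower and 2 higher, and both lysosome-related Rabs are above 0 at E18.5 and below 0 at PN1.

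From E18.5 to PN1 in ScapΔ/Δ lungs, 18 Rabs fell and 2 rose. The 20 called of 59 (33.9%) compare with 37.6% of all probe sets, so the share of Rabs was near the background, while the median was -0.25 against -0.03 over all. The calls came from every route but the cilium: 3 of 11 in ER and Golgi, 2 of 8 at early endosomes, 3 of 10 in recycling, 2 of 7 at late endosomes, both lysosome-related Rabs, 1 of 4 in delivery to the plasma membrane, 2 lower and 1 higher of 7 in regulated secretion and 3 lower and 1 higher of 8 others. The risers were Rab44, a large Rab of immune cells, by 0.34 ± 0.07 (adjusted p = 0.00803 from limma) and Rab26 by 0.28 ± 0.09 (0.0336).

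Rab25 read 11.29, 11.47 and 11.45 at E18.5 and 11.14, 9.57 and 9.79 in KO16, KO17 and KO18. All PN1 arrays were below all E18.5 arrays, KO16 least, with a log2 difference of -1.24 ± 0.31 (adjusted p = 0.0192 from limma). Rab17 fell from 9.65, 10.05 and 9.85 to 8.94, 8.75 and 8.88, and here the 3 PN1 arrays lay close together, KO16 included. Its difference was -0.99 ± 0.19 (adjusted p = 0.00745 from limma). Rab29 fell from 9.18, 9.48 and 9.67 to 9.06, 8.26 and 8.19, with a difference of -0.94 ± 0.21 (0.0127), with no overlap.

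Rab32 and Rab2b fell with KO16 inside the E18.5 range, Rab32 by a log2 difference of -1.14 ± 0.35 (adjusted p = 0.032 from limma) and Rab2b by -1.18 ± 0.35 (0.0294). The same held for Rab38 at -0.62 (0.0415) and Rab8a, a Rab of post-Golgi transport, at -0.67 (0.0339). Rab9 (-0.93), Rab3d (-0.86), Rab27b (-0.66), Rab40c (-0.65) and Rab12 (-0.56) fell without overlap. Rab27a, at -0.82, did not pass (adjusted p = 0.0631). The count depended on the arrays fitted. With each array left out in turn it ranged from 2, without KO17 or KO18, to 50 without KO16. It also fell without any of KO10, KO11 and KO12. The share of all probe sets called in these fits is not given here, so the counts are not read as a result about Rabs. When only the 6 deleted arrays were fitted no Rab was called. Without both KO17 and KO18 the median was 0.06.

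The other arrays of the Rabs named so far complete their course. Rab2b read 10.4, 10.43 and 10.56 in E18.5 controls and 10.54, 10.37 and 10.23 in deleted lungs, and at most 10.16 in Insig controls against 9.85, 10.45 and 10.21 in Insig1/2Δ/Δ lungs, overlapping in both. Rab25 overlapped likewise, with 11.48, 11.4 and 11.41 in E18.5 controls, 10.96, 11.25 and 11.06 in PN1 controls and 11.38, 11.21 and 11.32 against 11.14, 11.62 and 11.65 in the Insig line. Before birth neither Rab came near the values of KO17 and KO18.

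Rab22a read 10.55, 10.5 and 10.6 against 10.57, 10.36 and 10.37 at E18.5, with overlap, and 10.58, 10.64 and 10.65 against 10.51, 10.54 and 10.51 in the Insig line, where the deleted arrays were just below the controls. Probe set 10486057 of Rab5b overlapped in both, with 11.27, 11.19 and 11.37 against 11.36, 11.25 and 11.27 and 11.11, 11.23 and 11.25 against 11.18, 11.41 and 11.36. Rab17 in the Insig line read 8.88, 9.11 and 9.13 against 8.83, 9.35 and 9.37, with KO22 the lowest of the 6. Rab9 read 11.07, 11.44 and 11.16 in PN1 controls and 11.27, 10.22 and 10.26 in deleted lungs, and 11.01, 10.98 and 11.05 against 10.9, 11.06 and 11.18 in the Insig line, overlapping in both comparisons. Rab29 read 8.81, 8.95 and 8.68 in PN1 controls, so that KO16 was above them and KO17 and KO18 below.

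In control lungs the same step from E18.5 to PN1 gave a median Rab difference of 0.07 against 0.01 over all probe sets. No Rab was called in limma, against 2.58% of all probe sets, and 4 (6.8%) had an unadjusted p under 0.05, against 13.5%. These were Rab17 (-0.63, adjusted p = 0.129), Rab36 (-0.39), Rab7b (0.56) and the Rab11b probe set 10450034 (0.31). The arrays did not overlap in 13 higher Rabs (22%) and 8 lower (13.6%), against 17.6% and 16.5% of all. Rab17 read 9.23, 8.94 and 9.26 at E18.5 and 8.58, 8.89 and 8.06 at PN1, with the PN1 arrays below the E18.5 arrays and C15 the lowest of all 18.

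KO17 and KO18 widened the spread of that fit. When only the 6 control arrays were fitted, 6 of 59 Rabs were called, against 11.1% of all probe sets. Rab7b, a Rab of transport from endosome to Golgi, rose by 0.56 ± 0.07 (adjusted p = 0.0048 from limma), from 7.13, 7.11 and 7.25 to 7.77, 7.80 and 7.61. Rab30, Rab31, Rab23 and Rab5a rose by 0.32, 0.27, 0.36 and 0.22, and Rab25 fell, with a difference of -0.34. Rab31 and Rab5a belong to early endosomes and Rab30 to the Golgi, while Rab23 restrains hedgehog signalling at the cilium. The controls and the deleted lungs of E18.5 and PN1 enter several of these comparisons, so the comparisons are not independent of each other.

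The difference between the PN1 and the E18.5 effect of Scap deletion was tested as an interaction. No Rab passed an adjusted p of 0.05 in limma, nor did any other probe set (0%), with 0.265 as the lowest. At an unadjusted p under 0.05 there were 16 Rabs (27.1%), 15 of them lower, against 18.3% of all, and the median was -0.36 against -0.03. The most negative were Rab32 at -1.35 ± 0.50, Rab2b at -1.15 ± 0.50 and Rab9 at -1.0 ± 0.33. Rab44 was the only one of the 16 above 0, at 0.25 ± 0.10. Without KO17 and KO18 the median was -0.003, and without KO16 it was -0.57. Without KO16, 46 of 58 Rabs were called. The share of all probe sets called in that interaction fit is not given here. It was 61.9% for the PN1 difference without KO16, so the 46 are not read as a result about Rabs.

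In the Insig line at E17.5 the Rabs showed small differences. Of 58 tested, 39 were above and 19 below 0, with a median of 0.06 against 0.01 over all 22775. None was called in limma, and 0% of all probe sets were, with 0.758 as the lowest adjusted p of a Rab. At an unadjusted p under 0.05 there was 1 Rab (1.7%), Rab29, against 4.1% of all. The arrays did not overlap in 3 higher (5.2%) and 4 lower Rabs (6.9%), against 5.83% and 4.22%. Rab29 read 8.68, 8.78 and 8.80 in controls and 8.88, 8.98 and 9.13 in KO22, KO23 and KO24, a difference of 0.25 ± 0.08, and was also the only Rab in which both lines gave a higher level without overlap at the fetal ages.

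Rab8a read 11.29, 11.27 and 11.23 in Insig controls and 11.32, 11.48 and 11.54 in Insig1/2Δ/Δ lungs, a difference of 0.18 ± 0.08 without overlap. Rab34 read 9.93, 9.83 and 9.94 against 9.96, 10.14 and 10.06, a difference of 0.15 ± 0.07. Rab10, a Rab of delivery to the basolateral membrane, read 12.08, 12.08 and 12.05 against 11.94, 11.93 and 11.93. Here the deleted arrays lay close together below the controls, at -0.14 ± 0.06 (adjusted p = 0.758 from limma). Rab23 read 9.48, 9.27 and 9.33 against 9.27, 9.18 and 9.23, at -0.14 ± 0.08. Rab32 read 8.25, 8.58 and 8.31 against 8.34, 8.90 and 8.71, Rab38 8.98, 8.96 and 8.68 against 8.86, 9.01 and 9.14, and Rab7 11.36, 11.25 and 11.49 against 11.26, 11.53 and 11.49. All 3 overlapped, as did Rab27a, which read 9.88, 9.74 and 10.53 against 9.85, 10.43 and 9.99.

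The Rabs named in the Insig line were also followed after Scap deletion. Rab8a read 11.52, 11.48 and 11.51 against 11.48, 11.59 and 11.65 at E18.5 and 11.43, 11.55 and 11.47 against 11.54, 10.67 and 10.49 at PN1, with overlap at each age. Rab34 read 10.08, 10.09 and 10.04 against 9.98, 10.04 and 10.09 and 10.03, 10.16 and 10.1 against 10.15, 9.4 and 9.37, and Rab23 9.17, 9.26 and 9.24 against 9.48, 9.35 and 9.22 and 9.68, 9.42 and 9.64 against 9.63, 8.56 and 8.54. In both, KO16 stayed in the PN1 control range and KO17 and KO18 did not. Rab10 read 11.87, 11.89 and 11.94 against 11.96, 11.72 and 11.59 and 12.01, 11.81 and 11.96 against 11.89, 11.59 and 11.37, overlapping at each age.

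The 2 sets of Insig arrays bore on the Rabs. KO22 had 44 of 62 Rabs below the control mean with a median of -0.06, and KO23 and KO24 had 43 and 50 above it with medians of 0.11 and 0.12. Within the set of C19, C20 and KO22 the median Rab difference was -0.04, with 43 below 0, and within the set of C21, KO23 and KO24 it was 0.06, with 39 above 0. Rab29 was higher in the deleted arrays of both sets, at 0.16 and 0.26, and Rab10 and Rab23 lower in both, whereas Rab32 was at -0.08 in the first set and 0.50 in the other. With the set as a block, a fit chosen after seeing the data, limma called no Rab and the median was 0.02. C21, the only control beside KO23 and KO24, also stood apart in heart markers. Its Nppa read 12.63, against 6.70 to 7.74 in the other Insig arrays. The summed log2 level of 6 cardiac muscle markers was 12.80 to 14.87 in Insig controls and 12.98 to 13.74 in deleted lungs. The part of these markers in the Rab values was not tested. What separates the sets is not given in the labels.

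Between lines the largest Rab difference was that of Rab15, a Rab of endosome recycling. It read 9.79 to 10.14 in Insig controls and 9.20 to 9.23 in E18.5 Scap controls, -0.81 from E17.5 to E18.5. Rab32 went the other way, with 8.25 to 8.58 in Insig controls and 8.90 to 9.16 in Scap controls, a difference of 0.63. In 23 of 62 Rabs the E18.5 controls were all above the E17.5 controls and in 9 all below, where 24.5% and 16.5% of all probe sets were. Line, Insig2 knockout and age cannot be told apart here, so no test is given.

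The proteins that load, activate or serve Rabs were counted from lists. Between deleted and control lungs of either line, and in the difference of the Scap effects, the 6 lists held no call by limma. Between deleted and control lungs, 5 of 68 genes at E18.5, 21 at PN1 and 4 in the Insig line had an unadjusted p under 0.05 in limma. These shares of 7.4%, 30.9% and 5.9% are near the 9.24%, 32.3% and 4.1% of all probe sets in the same comparisons. From E18.5 to PN1 in ScapΔ/Δ lungs, 22 of the 68 genes were called, against 37.6% of all probe sets. In control lungs 2 were, against 2.58%. In ScapΔ/Δ lungs 3 of 6 genes of prenylation and Rab recycling fell with age and none rose. Chm, the Rab escort protein, fell by a log2 difference of -0.58 (adjusted p = 0.0203 from limma). Ggps1, which makes geranylgeranyl diphosphate, fell by -0.30, and Rabggtb, a subunit of the enzyme that attaches it, by -0.27. At E18.5, 4 of these 6 genes, the 3 fallers among them, were higher in deleted lungs than in controls without overlap, and 1 was lower. The shares of all probe sets were 14.5% and 21%. At PN1 all 6 were below 0 and overlapped. Of 14 secretion effectors 2 rose and 3 fell from E18.5 to PN1 in ScapΔ/Δ lungs. Mlph, the Rab27a effector melanophilin, was at -1.0 (adjusted p = 0.0019 from limma), Rab3ip at -0.53 and Rab3il1 at -0.52. Mlph also fell in control lungs over the same step, at -0.61 (0.0404).

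Of 13 ER and Golgi partners 1 rose and 3 fell, with Trappc2, a subunit of the complex that activates Rab1, at -1.17 and Trappc5 at -0.76. Of 15 lysosome partners 3 fell, the tethering subunits Vps41 (-0.47), Vps33a (-0.43) and Vps39 (-0.41). Of 10 recycling partners Ehd3 fell at -1.04 and Rab11fip1 rose at 0.61, and Rab11fip1 rose in controls too, at 0.75 (adjusted p = 0.0162 from limma). Of 10 early endosome partners 2 rose and 3 fell. These shares stand beside the 37.6% of all probe sets called in that comparison, and like the Rab calls they involve KO17 and KO18. Chm read 10.03 in KO16 but 9.37 and 9.4 in KO17 and KO18, and Trappc2 read 11.27 in KO16, inside the range of the E18.5 deleted lungs, but 9.69 and 9.73 in KO17 and KO18.

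Markers of lung cells moved in the same arrays. At PN1 the summed level of 10 type II cell markers was 15.26 to 15.60 in deleted and 15.80 to 15.84 in control arrays on the log2 scale, with 7 of 10 lower and 1 higher without overlap. That of 4 erythroid markers was 11.44 to 11.71 against 11.87 to 12.20, and that of 7 type I cell markers 14.27 to 14.50 against 14.52 to 14.56, both lower without overlap. Singly, 3 of 4 erythroid and 2 of 7 type I cell markers were lower without overlap, and 1 of each list was above 0. The sum of 7 macrophage markers overlapped, at 11.33 to 11.83 against 11.81 to 12.04. Smooth muscle markers rose with age, 4 of 5 in controls and 5 of 5 in deleted lungs, and their sums overlapped at PN1. The part of these cell types in the Rab values was not tested.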

How the data were processed

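Whole-lung RNA was measured with Affymetrix Mouse Gene 1.0 ST arrays. The authors deposited log2 values per probe set and analysed them in GeneSpring GX 11.5; their summarization and normalization are not given in the sources used here. Groups came from the sample labels. A probe set was tested if it reached the 35th percentile of an array in 66% or more of the arrays fitted. The linear models of limma 3.58.1 (R 4.3.3; lmFit, eBayes) took the 12 Scap arrays together, with a mean for each of 4 groups, and the 6 Insig arrays apart, and were tested on simulated data. P-values were adjusted by the Benjamini-Hochberg method over all probe sets tested, and those under 0.05 were called. Differences are given ± SE. Of the probe sets, 21789 carried 1 gene symbol, 1621 several and 12146 none, and all 62 Rab probe sets matched RefSeq. With 3 arrays a group, an exact permutation test of a single value cannot give a p below 0.1, and array number limits the precision. Members, routes, lists and the rule for named genes were chosen with earlier results of these data known. The rule takes the secretory and lysosome-related Rabs, Rab7 and, in each comparison, up to 5 Rabs with the largest difference among those called and, between deleted and control lungs, among those without overlap. Alternatives were filters, normalizations, array weights, an unmoderated test, the threshold of the methods (adjusted p of 0.01 and fold change of 1.5) and left-out arrays.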

Additional observations from a re-analysis of the deposited data

Results flagged for a closer look

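In 2 Rabs every ScapΔ/Δ lung lay on one side of its control mean at E18.5 and every ScapΔ/Δ lung on the other side at PN1. Rab7b was at 0.20 at E18.5 and at -0.48 at PN1 on the log2 scale, and the difference of these effects had an adjusted p of 0.265 in limma. Rab39b was at 0.10 and -0.18, did not pass the filter on low values, and its difference was not tested. At PN1 KO16 was only -0.06 from the control mean in Rab7b and -0.007 in Rab39b. It was inside the control range in both, so KO17 and KO18 carried the PN1 differences. The share of all probe sets with such a change of side was not counted.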

How the results depend on the processing

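Of 110 recomputed counts of called Rabs 86 were within 1.5 times the value reported. Only the comparison with age in deleted lungs had calls, so elsewhere this meant that the recomputed count was also 0. In that comparison, with 20 called, leaving out any array moved the count outside these limits. For the 20 differences of single Rabs that were recomputed, those called or not overlapping with the largest size, none of 350 values reversed. Other Rabs did: at PN1 35 of 59 took the other direction without KO17 and KO18. Among the 20, a Rab chosen for no overlap could not reverse when an array was left out. For those the lack of reversals was fixed by the choice. Array weights, whose estimation stopped before converging in the Scap line, gave calls in all 6 comparisons: 8 at E18.5 (11.2% of all probe sets), 50 at PN1 (68.1%), 46 for the difference of effects (64.4%), 8 with age in controls (12.5%), 49 with age in deleted lungs (76.1%) and 24 in the Insig line (36.7%). One fit of all 18 arrays gave 19 at PN1 (13.2%) and 1 with age in controls (3.79%). Fitting only the arrays compared gave 6 with age in controls and 0 in deleted lungs (0.281%), and the unmoderated test on those arrays, chosen after seeing the data, 1 and 0. Without KO17 and KO18 the counts with age were 9 in controls (11%) and 1 in deleted lungs (6.2%). In deleted lungs with age the unmoderated test gave 9 and the threshold of the methods 1, the latter where 1026 of all 22800 probe sets passed. Leaving out each array in turn gave 0 to 46 at PN1 and 0 to 46 for the difference of effects, with 46 without KO16 and 0 otherwise. Without KO16, 61.9% of all probe sets were called at PN1. With age in deleted lungs the range was 2 to 50: 50 without KO16, 10 without KO10, 4 without KO11, 3 without KO12, and 2 without KO17 or KO18. A group left with 1 array was assumed to vary like the others. In the other 3 comparisons no array left out gave a call. Where a count stands without a share of all probe sets, that share is not given here, and the count is not read as a result about Rabs. Median centring moved the median Rab difference from -0.33 to -0.46 at PN1, from -0.25 to -0.42 with age in deleted lungs and from -0.36 to -0.53 for the difference of effects. No paired analysis was possible because the array numbers of the labels differ between groups. With the 2 Insig array sets as a block, added after seeing the data, no Rab was called. The cause of these differences was not tested.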
